A study of Homo sapiens with 8 samples.

Results

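Promoters of protein-coding genes were compared between the start and the end of cardiac differentiation, in undifferentiated stem cells (ESC, day 0) and in cardiomyocytes (CM, day 14). Accessibility was read by ATAC-seq, in which the Tn5 transposase inserts sequencing adapters into accessible DNA, and a peak is a place where insertions pile up over the local background. Each gene was given 1 promoter, the transcription start site (TSS) of its Ensembl canonical transcript in GENCODE 44 on GRCh38, and a promoter had a peak in a library when a peak lay within 1 kb of that TSS. A promoter was called gained when it had a peak in both CM libraries and in neither ESC library, lost in the reverse case, and kept when it had a peak in all 4. Of 19970 promoters on chromosomes 1 to 22 and X, 85 were gained, 552 were lost and 13654 were kept.

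All libraries came from RUES2, an established line of human embryonic stem cells that was differentiated in culture, with 2 replicate libraries per stage. The labels do not say whether replicates came from separate differentiations, so that spreads and p-values below are those between libraries and may be technical. ESC were collected in E8 medium after a day with CHIR-99021, an activator of Wnt signalling, and before the medium was changed to start differentiation. CM came from the same line after further CHIR-99021, then the Wnt inhibitor Xav-939 and later B27 supplement. Libraries of mesoderm (MES, day 2) and cardiac progenitors (CP, day 5), which the gained, lost and kept classes did not use, were read at the same promoters. No sort of the cells is named in the labels. All groups share the line, while the medium and the treatments received differed together with the stage.

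A promoter is the stretch of DNA around a TSS where transcription factors and RNA polymerase assemble. Most promoters of broadly used genes lie in CpG islands and are accessible in nearly every cell type, whether or not the gene is strongly transcribed. Promoters of tissue-restricted genes are often poor in CpG and are opened by lineage factors. In the heart these include GATA4, NKX2-5, TBX5, MEF2C and SRF, and in stem cells OCT4, SOX2 and NANOG hold the pluripotent state.

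The lists of the 4 libraries held 103189 and 156234 peaks in ESC and 92891 and 55873 in CM. CM replicate 2 was the shallow library, with a median of 60 reads at the summit of promoter peaks against 87 in CM replicate 1 and 75 and 103 in ESC. A promoter had a peak in 15089 and 15795 cases in ESC (15442 ± 499, mean ± SD, n = 2 libraries) and in 14970 and 13951 cases in CM (14460.5 ± 721, n = 2). Both CM libraries lay below both ESC libraries, with an exact two-sided permutation p = 0.33, the smallest that 2 against 2 libraries can give. Peak lists hold no reads where no peak was called, so that a missing peak is a value below the caller's threshold and not an absence of accessibility. In bulk samples fewer accessible cells and less signal per cell cannot be told apart.

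The 150 bases before the TSS are shown for 2 gained and 3 lost promoters that belong to a gene list of the heart, of pluripotency or of another cell type. They are read 5′ to 3′ on the strand of the gene from GRCh38, and capitals mark a match to the sequence of a lineage factor or a TATA box on either strand.
POPDC2, which encodes a cAMP-binding membrane protein of cardiac conduction, lies at chr3:119660590-119660739 on the minus strand, and the capitals mark a match to the NKX2-5 letters that starts 18 bases before the TSS.
POPDC2: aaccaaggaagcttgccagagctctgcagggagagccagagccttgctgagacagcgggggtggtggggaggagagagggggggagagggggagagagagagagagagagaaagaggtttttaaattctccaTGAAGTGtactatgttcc
BMP10, a ligand of the BMP family made in the heart, lies at chr2:68871398-68871547 on the minus strand, with GATA letters that start 32 bases before the TSS.
BMP10: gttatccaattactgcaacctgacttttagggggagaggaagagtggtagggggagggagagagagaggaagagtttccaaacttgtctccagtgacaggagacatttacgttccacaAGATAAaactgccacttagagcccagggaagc
DPPA2, a DNA-binding protein of pluripotent cells, was lost and lies at chr3:109316518-109316667 on the minus strand, with GATA letters on the other strand that start 28 bases before the TSS.
DPPA2: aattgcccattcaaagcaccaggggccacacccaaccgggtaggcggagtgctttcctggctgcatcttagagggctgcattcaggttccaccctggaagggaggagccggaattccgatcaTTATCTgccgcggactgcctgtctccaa
LAMB3, a laminin chain of epithelial basement membranes, was lost and lies at chr1:209652426-209652575 on the minus strand.
LAMB3: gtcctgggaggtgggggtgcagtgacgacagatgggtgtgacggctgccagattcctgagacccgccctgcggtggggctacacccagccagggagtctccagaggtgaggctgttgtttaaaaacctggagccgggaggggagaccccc
TDGF1, a co-receptor of Nodal signalling, was lost and lies at chr3:46577638-46577787 on the plus strand.
TDGF1: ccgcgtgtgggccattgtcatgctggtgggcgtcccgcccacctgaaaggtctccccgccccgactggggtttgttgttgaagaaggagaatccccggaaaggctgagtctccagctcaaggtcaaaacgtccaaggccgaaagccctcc
The 2 gained stretches held 1 CpG each, and the 3 lost stretches held 6, 5 and 9.

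Gained promoters made up 0.426% of all promoters and lost promoters 2.76%, while 68.4% were kept. A further 3753 had no peak in any of the 4 libraries, and 1926 had a mixed pattern. Of these, 227 had a peak in 1 CM and no ESC library, 100 in both CM and 1 ESC library, 773 in both ESC and 1 CM library, 583 in 1 ESC and no CM library, and 243 in 1 library of each stage. The counts of gained and lost promoters depended on the lengths of the lists. When each list was shortened to its 55777 peaks of highest −log10 q, 299 promoters were gained and 257 were lost, so that the excess of losses turned into an excess of gains, and 69 of the 85 gained and 157 of the 552 lost promoters remained in their class. The gained count was 282 without CM replicate 2 and 176 without ESC replicate 2, and the lost count was 1265 without CM replicate 1 and 1057 without ESC replicate 1. The counts are therefore those of these 4 lists, and the balance between gains and losses is not read further.

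Of the 10 gained promoters of highest rank, 2 were on the sarcomere list (TRIM55 and CSRP3), 1 on the calcium and electrical list (POPDC2) and 1 on the list of cardiac transcription factors (BMP10). The fold, here the highest ratio of pileup to local background among the peaks within 1 kb, chose these promoters and is given as a description. At TRIM55, a ubiquitin ligase of the sarcomere, the fold was 10.1 and 10.2 in CM replicates 1 and 2, and no peak was called in ESC. MSS51, a mitochondrial protein of skeletal and heart muscle, had folds of 10.1 and 10.2. CCDC141, which encodes a coiled-coil protein, had folds of 10.3 and 10.1. In the CM library where each ranked lower, these 3 lay at the 80.5, 80.2 and 79.0 percentiles of promoters with a peak. The other seven of the 10 gained promoters of highest rank were CYSLTR2 (a leukotriene receptor), CTNNA3 (alpha-T-catenin of the intercalated disc), MYO18B (an unconventional myosin of striated muscle), CSRP3 (a LIM protein of the Z-disc), POPDC2, BMP10 and PALLD (palladin, an actin-associated protein). Their folds lay between 6.86 and 10.8 in CM replicate 1 and between 6.97 and 8.96 in CM replicate 2.

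Of these 10 promoters, 9 had a peak by day 5 in at least 1 CP library, as did 78.5% of all promoters. TRIM55 had a fold of 3.62 and 4.70 in MES and 8.19 and 12.5 in the CP libraries, above its MES values in both libraries and, in replicate 2, above its CM value. BMP10 had 3.39 and 4.05 in MES, against 6.97 and 13.1 in CP and, later, 6.99 and 7.11 in CM. CTNNA3 had no peak in MES or in CP replicate 1, a fold of 15.4 in CP replicate 2 and folds of 10.8 and 7.91 in CM. CSRP3 differed from the other 9, since it had a peak in neither MES nor CP and folds of 6.86 and 7.89 in CM. The class of these promoters depended on the TSS chosen. With any TSS of the gene CTNNA3, MYO18B, CSRP3 and PALLD were not gained, with the 5′ end of the gene CTNNA3, CSRP3 and POPDC2 were not, and at 2 kb CCDC141 and CTNNA3 were not.

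**Figure D1:**
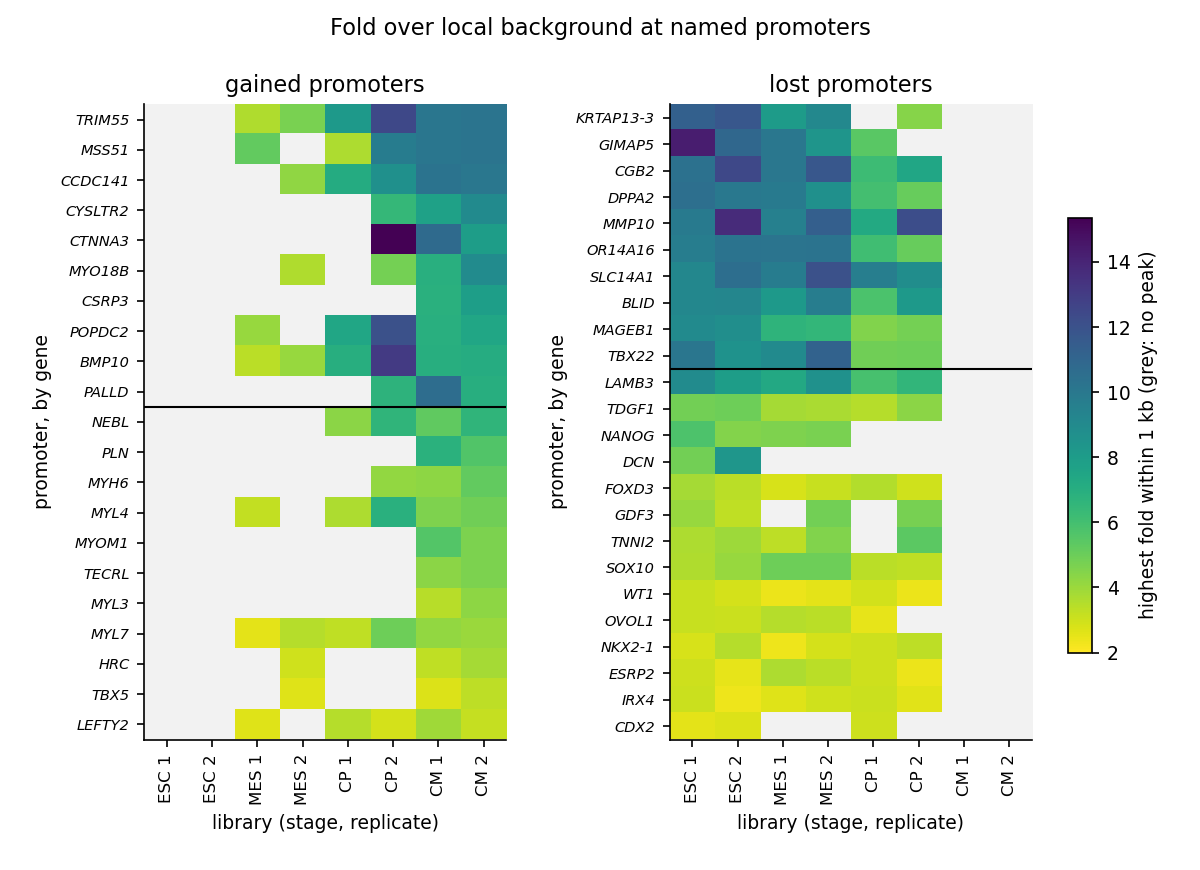
Fold over local background (colour) at the gained and the lost promoters named in the text, with a line per gene and a column per library, with grey where no peak was called. The 10 promoters of highest rank stand above the black line and other gained or lost promoters of the gene lists below it, and the highest fold shown is 15.4 at CTNNA3 in CP replicate 2.

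Sarcomere genes, whose products form the contractile unit of muscle, were the list with most gained promoters. Of 37 promoters, 9 were gained and 0 were lost, 24.3% and 0% of the list against 0.426% and 2.76% of all promoters. They included TRIM55, CSRP3, NEBL, MYH6, MYL3, MYL4, MYL7 and MYOM1. NEBL (nebulette of the Z-disc, chromosome 10, TSS at 20897311) had no peak in ESC or MES, folds of 4.33 and 6.64 in CP and 5.28 and 6.63 in CM. MYH6 (alpha-myosin heavy chain) had no peak before CP replicate 2, where its fold was 4.18, and folds of 4.28 and 5.19 in CM. MYOM1 (myomesin of the M-band) and MYL3 (an essential light chain) had peaks in CM alone, with folds of 5.56 and 4.66 and of 3.43 and 4.28. The atrial light chains MYL4 and MYL7 were open earlier, MYL4 with a fold of 3.22 in MES replicate 1 and 4.56 and 4.91 in CM, and MYL7 with 2.53 and 3.47 in MES and 4.15 and 4.03 in CM.

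TTN, which encodes titin, was not a gained promoter under the rule, because ESC replicate 2 held a weak peak. Its promoter (chromosome 2, TSS at 178807423) had a fold of 3.58 in ESC replicate 2 and no peak in ESC replicate 1 or MES. The fold was 7.20 and 11.5 in CP and 8.25 and 8.54 in CM, so that all CP and CM values lay above the only ESC value. With lists of equal length 14 of the 37 sarcomere promoters were gained, TTN among them, and 12 were gained without CM replicate 2. The gained count over all 19970 promoters rose as well, from 85 to 299 and to 282 in these settings. The choice of TSS lowered the count, to 5 with any TSS of the gene and to 5 with the 5′ end of the gene. ACTN2, alpha-actinin of the Z-disc (chromosome 1, TSS at 236686499), was kept, with folds of 9.22 and 8.49 in ESC and 6.99 and 7.26 in CM. Its promoter thus had a peak in stem cells, and its difference in rank of -0.55 on the scale of normal scores did not pass the test (limma adjusted p = 0.196).

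Genes of calcium handling and of the action potential had 4 gained promoters of 27 and 0 lost. These were 14.8% and 0% of the list, against 0.426% and 2.76% of all promoters. PLN, phospholamban, which restrains the calcium pump of the sarcoplasmic reticulum, had folds of 6.82 and 5.65 in CM and no peak in any other library. TECRL, an endoplasmic reticulum protein linked to inherited arrhythmia, likewise had peaks in CM alone, with folds of 4.31 and 4.64. HRC, a calcium-binding protein of the sarcoplasmic reticulum, had 3.28 and 3.78 in CM and a peak in MES replicate 2 with 2.95. POPDC2 was the fourth. A peak in all 4 libraries was present at 18 of the 27 promoters of the list, a share near the 68.4% of all promoters. With lists of equal length 7 of the 27 were gained and 1 (ANK2) was lost, when 299 of all promoters were gained and 257 lost.

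Of 32 promoters of cardiac transcription factors 23 were kept, a share near the 68.4% of all promoters. Another 2 were gained (6.25%) and 1 was lost (3.1%), against 0.426% and 2.76% of all promoters. The gained ones were BMP10, a ligand carried on that list, and TBX5, a T-box factor of heart and forelimb, whose folds were only 2.68 and 3.34 in CM. The lost one, IRX4, a homeobox factor of the ventricle, had 3.05 and 2.36 in ESC, 2.68 and 2.95 in MES and 3.08 and 2.60 in CP, all near the lower end of the lists. With lists of equal length neither TBX5 nor IRX4 kept its class, and 6 promoters of the list were gained (BMP10, SMYD1, HAND2, FOXC1, FOXC2 and TBX2) and 0 lost. In that setting 299 of all 19970 promoters were gained and 257 lost. No promoter of the 25 muscle metabolism genes was gained or lost, against 0.426% and 2.76% of all promoters, and 19 of them were kept. With lists of equal length 2 of the 25 were gained (HSPB7 and COX7A1) and 0 lost, and 1 was gained without CM replicate 2. All 16 housekeeping promoters were kept and had a peak in all 8 libraries.

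**Figure D2:**
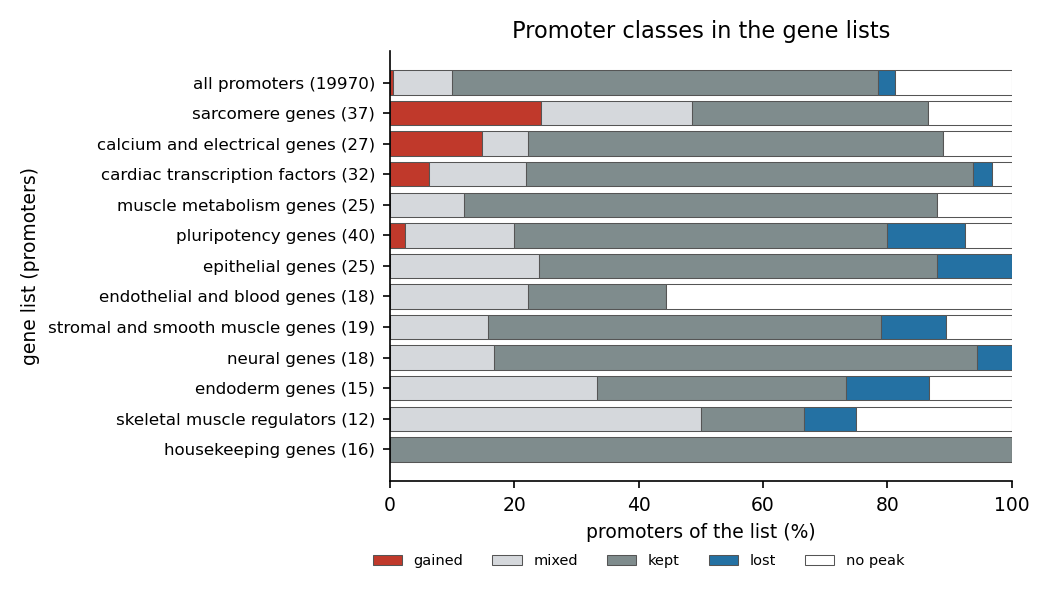
Share of the promoters of each gene list (percent, horizontal axis) that were gained, mixed, kept, lost or without a peak in the 4 libraries, with the number of promoters in parentheses. Sarcomere genes hold 9 gained of 37, pluripotency genes 5 lost of 40, and all 16 housekeeping promoters were kept.

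The lost promoters of highest rank belonged to genes of many tissues, and DPPA2 was the only one of them on the pluripotency list. The 10 of highest rank in ESC encode a keratin-associated protein of hair (KRTAP13-3), a GTPase of lymphocytes (GIMAP5), a chorionic gonadotropin beta subunit (CGB2), DPPA2, the stromelysin MMP10, an olfactory receptor (OR14A16), a urea transporter (SLC14A1), BLID, a MAGE family member (MAGEB1) and a T-box factor (TBX22). Their folds lay between 8.96 and 14.3 in ESC replicate 1 and between 8.58 and 13.7 in ESC replicate 2. At DPPA2 the fold was 10.5 and 10.0 in ESC, 9.83 and 8.65 in MES and 5.98 and 5.11 in CP, with no peak in CM. MMP10 kept its signal longer, with 9.86 and 13.7 in ESC, 9.57 and 11.3 in MES and 7.26 and 12.2 in CP. KRTAP13-3 had 11.3 and 11.7 in ESC, 8.02 and 9.11 in MES and a peak only in replicate 2 of CP, with 4.41. All 10 promoters had a peak in both MES libraries, and 8 of them in both CP libraries, against 75.4% and 74.2% of all promoters.

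Of 40 promoters of pluripotency genes, 5 were lost, 1 was gained and 24 were kept. The list thus had 12.5% lost against 2.76% of all promoters, and 3 of 40 were lost with lists of equal length (DPPA2, TDGF1 and FOXD3), 2 at 2 kb and 8 without CM replicate 1. The lost count over all promoters was 552, and 257, 597 and 1265 in these settings. With lists of equal length 2 of the 40 were gained (LEFTY2 and FGF4). Another 7 had a mixed pattern, and 3 (POU5F1, which encodes OCT4, OTX2 and DPPA3) had no peak within 1 kb of the TSS in any library, ESC included. NANOG, a core factor of the pluripotent state, had folds of 5.73 and 4.47 in ESC and 4.58 and 4.68 in MES, and no peak in CP or CM. TDGF1 had 4.86 and 4.93 in ESC, 3.82 and 3.69 in MES and 3.50 and 4.33 in CP. FOXD3, a forkhead factor, had 3.82 and 3.38 in ESC, and GDF3, a TGF-beta family ligand, had 4.04 and 3.26. The gained member was LEFTY2, an inhibitor of Nodal, with weak peaks of 3.91 and 3.18 in CM and of 3.48 and 2.86 in CP. SOX2 was among the kept promoters, with folds of 4.42 and 4.90 in ESC and 6.01 and 6.19 in CM, and was named after its values were seen.

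Epithelial promoters were open in stem cells and partly absent from the CM lists. All 25 had a peak in both ESC libraries, 22 in CM replicate 1 and 16 in CM replicate 2, and 3 were lost. LAMB3 had folds of 8.94 and 7.95 in ESC, 7.29 and 8.63 in MES and 5.92 and 6.55 in CP, whereas ESRP2, a splicing factor of epithelia, and OVOL1, a zinc finger factor, had 3.01 and 2.50 and 3.11 and 3.07 in ESC. With lists of equal length LAMB3 was still lost, while ESRP2 and OVOL1 were not, and CRB3 was lost in their place. In that setting 257 of all promoters were lost. The shallow CM replicate 2 and the lower number of epithelial peaks moved together, and the part of depth in these losses was not tested.

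No marker promoter of the other cell types listed was gained, which at 0.426% gained of all promoters is near the background for lists of this size. Of 18 endothelial and blood promoters, 0 were gained, 0 were lost, 4 were kept and 10 had no peak in the 4 libraries, with 6 and 8 peaks in ESC and 7 and 5 in CM. Of 19 stromal and smooth muscle promoters, 0 were gained and 2 were lost. DCN (decorin of the extracellular matrix) had folds of 4.84 and 8.37 in ESC and no peak in any later library. The neural list had 1 lost of 18 (SOX10), the endoderm list 2 lost of 15 (CDX2 and NKX2-1) and the list of skeletal muscle regulators 1 lost of 12 (TNNI2, a fast troponin). WT1, the other stromal loss, had 3.11 and 2.88 in ESC, and the folds of CDX2 and NKX2-1 in ESC lay between 2.56 and 3.50, so that these losses were of weak peaks. SOX10 and TNNI2 had 3.60 and 4.04 and 3.64 and 3.96 in ESC. With lists of equal length 3 stromal promoters (PDGFRA, ACTA2 and LUM) and 1 endothelial and blood promoter (TAL1) were gained, and without CM replicate 2 the endoderm list had 2 gained (APOA1 and HNF4A). DCN, WT1, CDX2, NKX2-1 and TNNI2 were not lost with lists of equal length, where SOX10 still was and MYF6 was the skeletal loss. The counts in these lists thus depended on the list lengths.

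The MES and CP libraries were not used by the classes, whereas 0% and 100% in ESC and CM are fixed by the rule. Of the 85 gained promoters, 24 (28.2%, 95% Wilson interval 19.8 to 38.6) and 31 (36.5%, 27.0 to 47.1) had a peak in MES replicates 1 and 2, and 36 (42.4%, 32.4 to 53.0) and 59 (69.4%, 59.0 to 78.2) in CP. The 2 CP libraries differed by more than their counting error. Of the 552 lost promoters, 368 (66.7%, 62.6 to 70.5) and 460 (83.3%, 80.0 to 86.2) had a peak in MES, and 321 (58.2%, 54.0 to 62.2) and 308 (55.8%, 51.6 to 59.9) in CP. Over all promoters the share was 76.2% and 78.4% in MES and 76.2% and 76.5% in CP. Gained promoters with a peak in neither MES nor CP numbered 21 (24.7%, near the 19% of all promoters), among them PLN, CSRP3, MYOM1, MYL3 and TECRL. Lost promoters with a peak in all 4 MES and CP libraries numbered 195 (35.3% against 73.0% of all promoters), and 50 (9.06% against 19%) had none in them. MES replicate 1 and CP replicate 1 had fewer peaks than replicate 2 of the same stage, and their part in the differences between replicates was not tested.

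**Figure D3:**
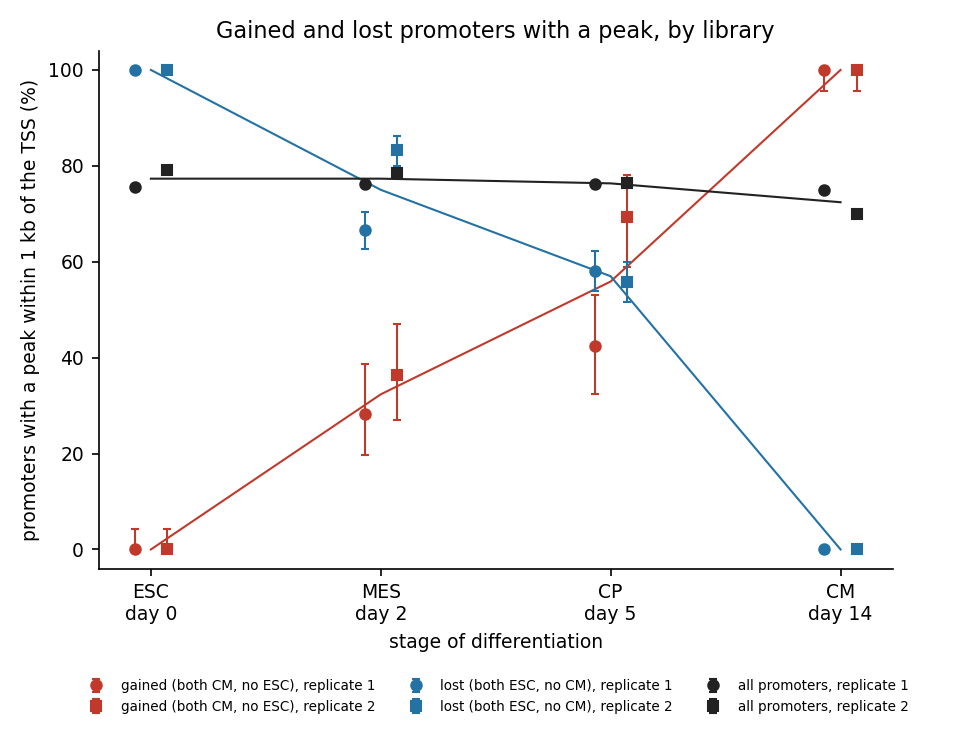
Percent of the gained, the lost and all promoters with a peak within 1 kb of the TSS (vertical axis) in each library of the 4 stages (horizontal axis). Points are libraries with 95% Wilson intervals and lines join the stage means. The values of 0% and 100% in ESC and CM are fixed by the rule, and the gained promoters lie at 28.2% and 36.5% in MES and at 42.4% and 69.4% in CP.

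Gained and lost promoters had lower folds and narrower peaks than kept ones. The rule favours such values, since a gained or lost promoter must lack a called peak in the other stage. Weak peaks miss the caller's threshold more easily. These values are therefore a description, and the part of the rule in them was not tested. The median fold of gained promoters was 4.31 and 4.66 in CM, at the 17.2 and 11.8 percentiles of promoters with a peak, and that of lost promoters was 4.18 and 4.14 in ESC, at the 10.2 and 13.6 percentiles. Kept promoters had medians of 7.84 and 7.69 in ESC and 7.28 and 7.88 in CM. The peak of highest fold had a median width of 356 and 304 bp at gained promoters in CM and of 320.5 and 432.5 bp at lost promoters in ESC, against 911 and 760 bp at kept promoters in CM and 901 and 1034 bp in ESC. A peak covered the TSS itself at 68.2% and 60.0% of gained, 61.2% and 68.7% of lost and 93.2% to 97.5% of kept promoters. The distance from the summit to the TSS had a median of 111 and 129 bp at gained, 136 and 147.5 bp at lost and 86 to 90 bp at kept promoters.

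The gained promoters were poor in CpG. In the 300 bases from 250 before to 50 after the TSS, the ratio of observed to expected CpG had a median of 0.212 in the gained class (quartiles 0.135 and 0.306), 0.440 in the lost class (0.235 and 0.741), 0.857 in the kept class (0.737 and 0.962) and 0.776 over all promoters. A ratio of at least 0.6, usual for CpG islands, was found at 1.18% of gained, 36.1% of lost, 89.7% of kept and 67.4% of all promoters. Promoters without a peak in the 4 libraries were as poor in CpG as the gained ones, with a median of 0.222. The genes of gained promoters were shorter, with a median length of 14.3 kb against 18.4 kb for lost, 36.6 kb for kept and 27.5 kb for all genes. Genes whose promoter had no peak in the 4 libraries were shorter still, with a median of 11.4 kb. Another TSS on the opposite strand within 1 kb was present at 0 of the 85 gained promoters (0%), at 0.362% of lost and at 14.1% of kept promoters. The share was 10.1% over all promoters and 0.986% over those without a peak, which is near that of the gained class.

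**Figure D4:**
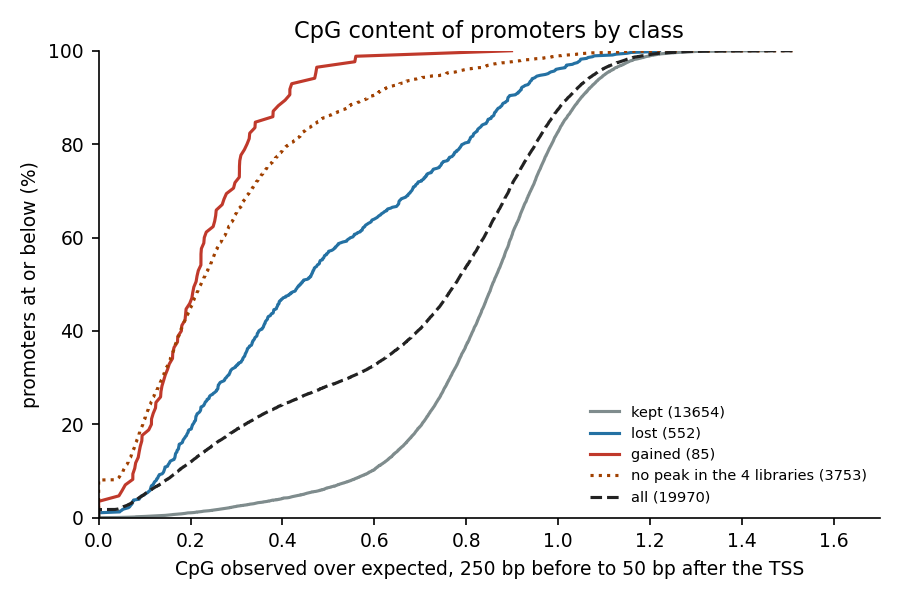
Cumulative percent of promoters (vertical axis) at or below a ratio of observed to expected CpG (horizontal axis) in 300 bases at the TSS, for kept, lost, gained and all promoters and for those without a peak in the 4 libraries. The medians are 0.857, 0.440, 0.212, 0.776 and 0.222, and the curve of the gained promoters runs beside that of promoters without a peak up to about its median and above it beyond.

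Letters of several cardiac factors were found at a larger share of gained than of lost or kept promoters, and they are described without a test. GATA letters, AGATAA on either strand, were present in the 300 bases at 19 of 85 gained promoters (22.4%, 95% Wilson interval 14.8 to 32.3), 10.1% of lost (7.90 to 12.9), 4.02% of kept (3.70 to 4.36) and 7.15% of all promoters. NKX2-5 letters, TNAAGTG, were present at 20.0% of gained (12.9 to 29.7), 8.15% of lost, 5.90% of kept and 7.96% of all promoters. Since these letters are poor in CpG, the share among all promoters with a CpG ratio below 0.6 is given too, and it was 14.5% for GATA and 13.3% for NKX2-5, inside the interval of the gained class for NKX2-5 and just below it for GATA. Among promoters without a peak, which were as poor in CpG, the shares were 16.5% and 14.5%, inside both intervals of the gained class. The CArG box of SRF was found at 8.24% of gained (4.05 to 16.0) against 1.80% of all low-CpG promoters, and the MEF2 box at 4.71% (1.85 to 11.5) against 0.969%. Both intervals of the gained class lay above these shares, on 7 and 4 promoters.

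TATA letters, TATAAA, were found at 21.2% of gained promoters (13.8 to 31.0) and at 20.1% of all low-CpG promoters, and 3 gained promoters held overlapping TATA and MEF2 matches. TEAD letters, GGAATG, were found at 25.9% of gained (17.8 to 36.1), 13.2% of lost and 16.3% of all low-CpG promoters. T-box letters, AGGTGTG, were found at 5.88% of gained, 7.43% of lost and 3.00% of kept promoters, with gained and lost intervals that overlap. The SP/KLF letters GGGCGG, which hold a CpG, went the other way, with 15.3% of gained, 48.9% of lost and 76.5% of kept promoters. So did the ETS letters CCGGAAG, with 2.35%, 5.07% and 18.8%. Among all low-CpG promoters the shares were 23.7% and 3.69%, inside the intervals of the gained class (9.16 to 24.4 and 0.648 to 8.18). OCT4 letters, ATGCAAAT, were found at 3.53% of gained (1.21 to 9.87) and 3.08% of lost promoters (1.93 to 4.88). The intervals of the gained and the lost class overlap for the octamer.

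The same letters were sought in the 200 bases around the peak summits. GATA letters were found at 22 of 85 gained summits in CM (25.9%, 17.8 to 36.1), at 2.61% of lost summits in ESC (1.56 to 4.33) and at 1.47% of kept summits in CM. NKX2-5 letters were found at 18.8% (11.9 to 28.4), 3.17% and 2.79%. Both shares at gained summits were above the lost and the kept ones by more than the counting intervals, while the share in summits of low CpG alone was not computed. The octamer was found at 0 of 85 gained summits, with an upper Wilson bound of 4.32%, and at 2.42% of lost summits (1.42 to 4.10). A match of letters is a description of the sequence and not of binding.

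Among the 13654 kept promoters, few passed the test for a difference in rank between the stages. The fold was ranked within each library and turned into normal scores, and limma with Benjamini-Hochberg adjustment over all kept promoters called 82 higher in CM (0.601%) and 232 lower in CM (1.7%). All scores of CM lay above those of ESC at 4001 promoters (29.3%) and below them at 3117 (22.8%). The median difference over all kept promoters was 0.04, and the scores correlated with r = 0.935 between the ESC libraries, 0.907 between the CM libraries and 0.821 to 0.884 between stages, across promoters that are not independent. The smallest differences called were 0.93 higher and 0.87 lower. At the threshold, PWWP3B was called lower with a difference of -1.13 (adjusted p = 0.0492) and INSC was not, with -1.05 (adjusted p = 0.0506).

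The number of calls rested on single libraries. It was 17 higher and 116 lower without ESC replicate 1, 25 and 73 without ESC replicate 2, 433 and 781 without CM replicate 1 and 126 and 322 without CM replicate 2. When folds were ranked over all peaks of a list and not over kept promoters, 0 were higher and 4 lower in limma, with 968 and 900 at an unadjusted p under 0.05 against 1315 and 1459 with the ranks over kept promoters.

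**Figure D5:**
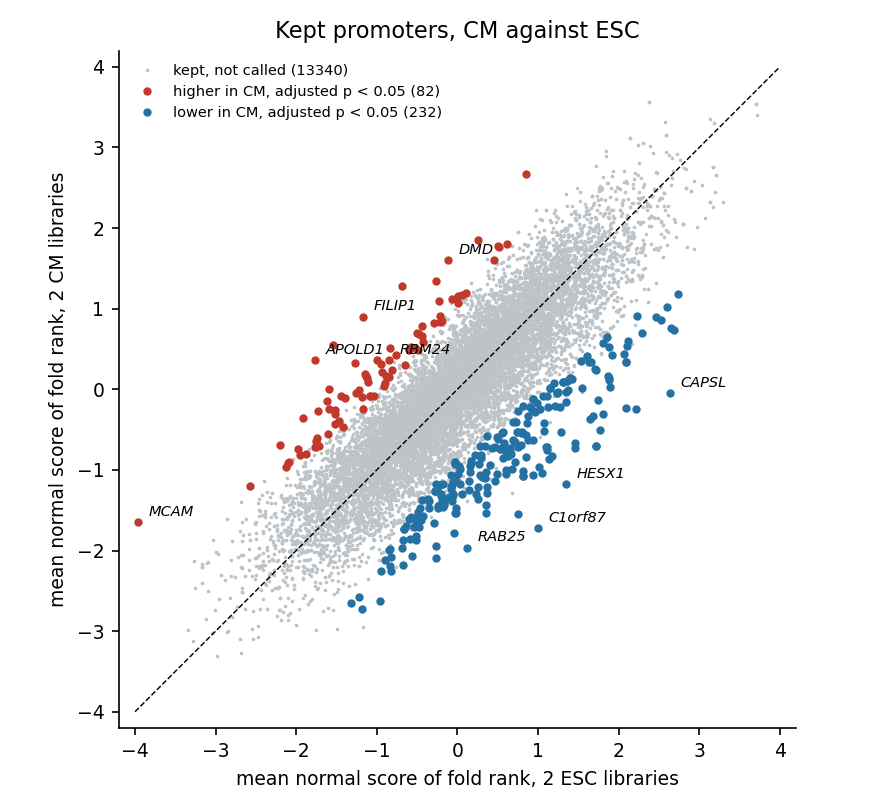
Mean normal score of the fold in ESC (horizontal axis) and in CM (vertical axis) for the 13654 kept promoters, each score being the rank of the fold within a library. The 82 promoters called higher and the 232 called lower in CM by limma are coloured, and named genes stand at the edges of the cloud, with APOLD1 2.13 above and C1orf87 2.72 below the diagonal.

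The 10 kept promoters that were higher in CM by most belonged to genes of different kinds, and none of the 10 was on a gene list. DMD, which encodes dystrophin (chromosome X, TSS at 33211549), had folds of 6.68 and 8.19 in ESC and 11.7 and 11.8 in CM, a difference of 1.72 ± 0.274 normal scores (SE, n = 2 and 2 libraries, adjusted p = 0.0172). DYSF, dysferlin of membrane repair (chromosome 2, TSS at 71466699), had 3.61 and 4.52 in ESC and 6.78 and 8.45 in CM (1.60 ± 0.254, adjusted p = 0.0172). FILIP1, a filamin-interacting protein (chromosome 6, TSS at 75493800), had 4.35 and 5.34 in ESC, 11.9 and 13.5 in CP and 10.2 and 9.84 in CM (2.07 ± 0.252, adjusted p = 0.00739). In these genes both CM folds lay above both ESC folds, but DMD and DYSF were not called without ESC replicate 1 (1.43 and 1.27), nor DMD with any TSS of the gene (1.14). APOLD1, an apolipoprotein L domain protein, had 3.95 and 3.53 in ESC, 7.78 and 8.86 in MES, no peak in CP and 8.60 and 8.56 in CM, with a difference of 2.13 (adjusted p = 0.00308), which was 0.85 and not called at 2 kb. GCNT2, a glycosyltransferase, had 3.67 and 4.64 in ESC and 9.45 and 8.72 in CM, with a difference of 2.1 (adjusted p = 0.00891).

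MCAM, a cell adhesion molecule, had the largest difference in normal scores, 2.31 (limma adjusted p = 0.0206). Its folds were low throughout, with 2.12 and 1.93 in ESC and 3.53 and 4.05 in CM. The ratio of its mean CM fold to its mean ESC fold was 1.87, below the 2.29 of APOLD1. At 2 kb the difference at MCAM was 1.75 and was not called. MCAM ranked lowest of all kept promoters in both ESC libraries, at a score of -3.97 in each. The others of the 10 with the largest differences were APELA, a ligand of the apelin receptor (1.98), ZNF519 (1.82), RSRC1, a splicing-related protein (1.62), and SAMHD1, a dNTP hydrolase (1.60). Their limma adjusted p-values lay between 0.0172 and 0.0481. Without ESC replicate 1 their differences were smaller, at 1.55, 1.48, 1.48 and 1.47. With ranks over all peaks APELA, ZNF519, RSRC1 and SAMHD1 were not called (1.59, 1.44, 1.26 and 1.23). RSRC1 was not called with the rank of −log10 q either (0.74). ZNF519 was also not called with any TSS of the gene, at 2 kb, without the trend or with the log2 fold in place of ranks.

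The 10 kept promoters that were lower in CM by most had folds of 9.41 or more in both ESC libraries. C1orf87 (chromosome 1, TSS at 60073770) had folds of 10.3 and 10.9 in ESC, 11.8 and 12.2 in MES and 3.41 and 3.96 in CM, a difference of -2.72 ± 0.203 (adjusted p = 0.000871). HESX1, a homeobox repressor of the early embryo and pituitary (chromosome 3, TSS at 57199978), had 11.9 and 11.3 in ESC, 12.6 and 12.4 in MES, then 8.75 and 10.3 in CP, and finally 5.03 and 4.24 in CM (-2.52 ± 0.252, adjusted p = 0.00308). With any TSS of the gene the difference at HESX1 was -0.04 and was not called. CAPSL, a calcyphosine-like protein, had 15 and 15.9 in ESC and 7.17 and 7.71 in CM (-2.69, adjusted p = 0.00308). For each of them MES lay near ESC and CM lay below all other stages. They were chosen for a CM rank far below the ESC rank, so that this order is no sign of a course in time. The others were ZNF502 (-2.46), TVP23C with its read-through gene TVP23C-CDRT4 at the same peak (-2.42), TAF2, a subunit of TFIID (-2.32), PRSS48, a serine protease (-2.29), GABRG1, a GABA receptor subunit (-2.28), STEEP1 (-2.20) and HMSD (-2.12), with adjusted p-values from 0.00308 to 0.0164.

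Of the gene lists, epithelial genes had the most kept promoters lower in CM, 3 of 16 against 1.7% of all kept promoters, with 0 higher and a median difference of -0.29 against 0.04. RAB25, a small GTPase of epithelia, had folds of 8.45 and 7.75 in ESC and 3.78 and 3.23 in CM (-2.09 ± 0.282, adjusted p = 0.0104). CDH1, E-cadherin, had 7.81 and 6.82 in ESC and 4.65 and 3.89 in CM (-1.22 ± 0.253, adjusted p = 0.0392). MARVELD3, a tight junction protein, had 6.93 and 6.16 in ESC and 4.01 and 3.80 in CM (-1.14 ± 0.226, adjusted p = 0.0365). CER1, a secreted inhibitor of Nodal and BMP on the endoderm list, had 10.7 and 8.43 in ESC and 5.83 and 5.03 in CM (-1.47, adjusted p = 0.0368).

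Over all kept promoters 0.601% were higher in CM and 1.7% lower. Of the 14 kept sarcomere promoters 2 were higher in CM and 0 lower, and of the 18 kept calcium and electrical promoters 1 was higher and 0 lower. They were the splicing regulators RBM24, with folds of 5.84 and 5.17 in ESC and 8.35 and 8.79 in CM (1.21 ± 0.206, adjusted p = 0.0198), and RBM20, with 4.92 and 4.71 in ESC and 6.54 and 7.24 in CM (0.93 ± 0.197, adjusted p = 0.0417). TRDN, triadin of the calcium release complex, had 4.17 and 5.16 in ESC and 7.90 and 6.92 in CM (1.21 ± 0.265, adjusted p = 0.0451). The medians of both lists were near that of all kept promoters, with -0.01 and -0.10 against 0.04. No kept promoter of the other 8 lists passed the test in either direction.

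The 23 kept promoters of cardiac transcription factors had a median difference of 0.57 against 0.04 over all kept promoters, although none of them passed the test. Both CM scores lay above both ESC scores at 15 of them and below at 0, against 29.3% and 22.8% of all kept promoters. Chosen after their values were seen, TBX3 had a difference of 0.88 (adjusted p = 0.0600), TBX20 0.86 (adjusted p = 0.0732), PROX1 0.84 (adjusted p = 0.0722) and NKX2-5 0.78 (adjusted p = 0.160) in limma.

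The ranks of the called kept promoters in the other libraries are given as a description. The median percentile of the higher ones among kept promoters was 12.6 and 17 for the ESC libraries, 29.5 and 26.4 for MES, 36.0 and 42.4 for CP, and for CM 58.7 and 57.4. That of the lower ones was 70.0 and 71.5 for ESC, 61.8 and 70.1 for MES, 43.0 and 56.8 for CP, and for CM 24.3 and 15.4. For the lower ones MES replicate 2 lay within the ESC values. The ESC and CM values chose these promoters for being far apart, so that less extreme ranks in MES and CP are no sign of a course in time. The called promoters had a somewhat lower CpG ratio than all kept ones, with medians of 0.793 for higher and 0.715 for lower against 0.857, and an opposite TSS within 1 kb at 2.44% and 6.90% of them against 14.1%.

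At the edge of the 1 kb window, PTH1R was gained with its farther CM peak at 974 bp (folds of 3.53 and 4.60 in CM), and SSC5D was not, since a CM peak lay 1012 bp away. SHISA7 was lost with an ESC peak at 1000 bp (folds of 5.37 and 4.43 in ESC), while CM replicate 1 had a peak 1023 bp away. AVP was not lost, with its ESC peak at 1003 bp.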

How the data were processed

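ATAC-seq had been performed on 8 libraries, 2 per stage. Per the submitters' processing notes the tools were BWA 0.7.13, Picard, bedtools 2.26.0 and MACS2 2.1.0 on hg38, and each library had its own peak calling by the authors, after duplicates and reads of low mapping quality were removed. The deposited peak lists give for each peak the fold over local background as a ratio (column 7), its significance as −log10 of the p-value and of the q-value, and the summit's offset from the peak start in bp. No lists were pooled. Peaks were joined here to the TSS of 19970 protein-coding genes (GENCODE 44) within 1000 bp, and the highest fold was taken. Reads at the summit were recovered from the deposited fold and −log10 p, and their median at promoters (60 to 104 per library) stands for depth. Shares carry 95% Wilson intervals, which cover counting error only.

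Kept promoters were compared with limma 3.58.1 in R 4.3.3 (trend, no covariates) on normal scores of the ranked fold, with Benjamini-Hochberg adjustment at 0.05. This was tested on simulated data. Counts per library were compared by an exact permutation test in scipy 1.17.1, with Python 3.11.15, pandas 2.3.3, numpy 2.4.6, statsmodels 0.14.6 and matplotlib 3.10.9 for the rest. Samples were grouped by the stage in their labels.

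Named promoters were the 10 gained and the 10 lost of highest lower percentile in CM or ESC, the 10 kept with the largest difference in each direction past 0.05, TTN, NEBL and ACTN2, the gained, lost or called members of 12 gene lists (284 genes), and those at the edge of the window. Some items under this rule are not reported here. The promoters, the lists and the tests were chosen with earlier results of these data known. Alternatives were distances of 500 and 2000 bp, the summit, any TSS, the 5′ end of the gene, lists of equal length, a −log10 q of at least 5, leaving out a library, other scales and fits, and a replicate block.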

Additional observations from a re-analysis of the deposited data

How the results depend on the processing

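The count of kept promoters stayed within 1.5 times its value under every alternative run, and gained and lost counts did so for the other distances, TSS choices, the stricter q and sites. Members changed more than these counts. With any TSS of the gene 63 of the 85 gained and 424 of the 552 lost promoters stayed in their class, and with the distance to the summit 80 and 515 did. With a peak in either replicate counted, 312 were gained and 1135 lost, and with lists of equal length 299 and 257. Leaving out 1 library gave 94 to 282 gained, 612 to 1265 lost, 17 to 433 kept promoters higher and 73 to 781 lower in CM, where the lone library of a stage is assumed to vary like the other stage. The counts higher and lower were 472 and 639 with the rank of −log10 q, 44 and 130 without the trend and 0 and 4 with ranks over all peaks, where 17 of 21 named kept promoters were no longer called, and 156 higher with all 8 libraries. The cause was not tested. With the replicate block 281 were higher and 619 lower, and deviations of same-numbered libraries from their stage means correlated with r = -0.163, so that the numbers were not taken to pair the libraries. A crossed pairing, chosen after seeing the data, gave 308 and 612. With 2 libraries per stage and no reads outside peaks, weak promoters cannot be told from closed ones.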

Other observations

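The clustered protocadherins, cell adhesion molecules whose many alternative promoters lie side by side in 3 clusters, were a family with many lost promoters. They were chosen after their values were seen. Of 53 promoters 18 were lost (34.0%), 0 were gained and 8 were kept, against 2.76% lost of all promoters. The losses lay in all clusters, with 5 of 15 in the alpha, 7 of 16 in the beta and 6 of 22 in the gamma cluster. A peak was present at 30 and 35 of the 53 in ESC, 21 and 30 at day 2, 22 and 19 at day 5, and 13 and 10 in CM. With lists of equal length 8 of them were lost, when 257 of all promoters were.

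HOX genes, chosen likewise, had 4 lost promoters of 39 (HOXD11, HOXC10, HOXC5 and HOXB1), 0 gained and 6 kept, and 3 were lost with lists of equal length. The lost share was 10.3%, against 2.76% of all promoters. Their promoters had a peak in 19 and 24 cases in ESC and in 16 and 8 in CM, with the shallow CM replicate 2 at the lowest count. Of 515 promoters of ZNF genes 458 were kept and 5 lost, and of 80 ribosomal protein promoters 78 were kept, against 68.4% kept and 2.76% lost of all promoters. Of 416 olfactory receptor promoters 372 had no peak in the 4 libraries, 7 were lost and 2 gained. These were 1.68% lost and 0.481% gained, against 2.76% and 0.426% of all promoters, of which 18.8% had no peak.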
